A study of Mus musculus with 18 samples.

Results

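The major urinary protein genes and pseudogenes of the mouse (Mup) were followed across 18 liver RNA sequencing libraries from mice with and without a liver-specific knockout of Ftcd. Members were all rows of the expression table whose symbol was Mup or Mup-ps followed by a number, which gave 49 of 58126 genes, 22 annotated as protein-coding (Mup1 to Mup22) and 27 as pseudogenes. The groups were tumours of LKO mice given the liver carcinogen diethylnitrosamine (DEN LKO tumour, 3 libraries), nontumour liver of LKO mice given DEN (DEN LKO nontumour, 3), nontumour liver of wild-type mice given DEN (DEN WT nontumour, 6), liver of LKO mice without DEN (untreated LKO, 3) and liver of wild-type mice without DEN (untreated WT, 3). All mice were C57BL/6, and the WT mice were littermates of the LKO mice. DEN mice received 20 mg/kg by intraperitoneal injection on postnatal day 14, and their tissue was taken 12 months after the injection. Untreated mice were 12 months old. The labels give neither the promoter of the Cre transgene nor the animal behind each library, so a p-value below measures the spread between libraries, which may be technical in part. The product of Ftcd is a folate enzyme that works in the last steps of histidine degradation.

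Major urinary proteins are small secreted lipocalins, barrel-shaped carriers of hydrophobic ligands. Mouse hepatocytes release them into the blood, the kidney filters them into the urine, and there they hold volatile pheromones and act as scent signals themselves. In the liver most Mup genes are used more in males, where pulsed growth hormone acts through the receptor Ghr and the transcription factor STAT5b; testosterone, thyroid hormone and glucocorticoids also act on them. Mup20 encodes darcin, a protein of male urine that attracts females. A few of the more divergent genes, Mup4 and Mup5 among them, are known from nasal, salivary or lacrimal glands more than from liver.

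In the GENCODE M21 annotation of GRCm38, 48 of the 49 members lay in 1 cluster on chromosome 4, between bases 59956804 and 62150863 (2.19 Mb), and Mup-ps22 lay on chromosome 11. On chromosome 4, 21 of the 22 coding genes were on the minus strand, Mup6 being the exception, and 20 of the 26 pseudogenes were on the plus strand. The 16 genes other than Mup3, Mup4, Mup5, Mup6, Mup20 and Mup21 are called central here, after their place in the array. Their coding sequences were 98.2 to 99.8% identical (median 99.0% over 120 pairs). Against the central genes, Mup20 was 90.1 to 91.3% identical, Mup3 83.8 to 85.1% and Mup21 83.9 to 85.2%, while Mup3 and Mup21 were 94.7% identical to each other. A stretch of the same part of the coding sequence shows this for the genes followed most closely below. It is printed 5′ to 3′ from the GENCODE M21 transcripts, coding bases 241 to 360 of Mup22, Mup11, Mup20 and Mup21, 238 to 357 of Mup19 and 250 to 369 of Mup3, with capitals where a base differs from Mup22.
Mup22: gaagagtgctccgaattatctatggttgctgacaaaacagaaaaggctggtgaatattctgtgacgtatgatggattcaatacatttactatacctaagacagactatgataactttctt
Mup19: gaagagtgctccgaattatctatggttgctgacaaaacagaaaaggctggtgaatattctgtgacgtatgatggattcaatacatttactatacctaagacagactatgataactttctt
Mup11: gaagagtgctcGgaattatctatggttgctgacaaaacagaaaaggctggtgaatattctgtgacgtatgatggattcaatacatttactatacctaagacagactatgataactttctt
Mup20: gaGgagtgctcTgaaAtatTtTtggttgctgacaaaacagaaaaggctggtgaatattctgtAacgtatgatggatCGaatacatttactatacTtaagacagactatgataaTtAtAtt
Mup3: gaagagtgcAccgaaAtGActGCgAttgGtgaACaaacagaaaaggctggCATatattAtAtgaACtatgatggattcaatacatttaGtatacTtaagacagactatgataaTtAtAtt
Mup21: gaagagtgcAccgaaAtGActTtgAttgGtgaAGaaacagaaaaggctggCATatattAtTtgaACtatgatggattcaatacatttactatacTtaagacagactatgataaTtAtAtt
In this stretch Mup19 had 0 and Mup11 had 1 base unlike Mup22, Mup20 had 12, Mup3 had 22 and Mup21 had 20. Identity of this degree bears on the values themselves, because a read that fits several genes is divided among them by estimation. Of the stretches of 100 bases in each transcript, 59.4 to 100% (median 85.7%) recurred in another member for the central genes, 100% for Mup22 and Mup19, 83.5% for Mup11, 38.8% for Mup20, 4.5% for Mup21 and 2.9% for Mup3. Levels of single central genes are therefore uncertain, while those of Mup3 and Mup21 rest mostly on sequence of their own. The levels are TPM, which are corrected for gene length and set to a fixed total per library, and from which read numbers cannot be had; the sequencing depth is unknown.

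RefSeq promoters (GRCm38.p6, from before to just after the annotated start, 300 bases) were found for 14 of the 22 coding genes. Those of Mup21 and Mup3, a pair at the high end of the cluster, and of Mup19 and Mup18, a central pair, are printed 5′ to 3′ on the gene's strand because both pairs differ in level below. Capitals mark the TATA box, searched as TATATAA, letters that were chosen after these promoters had been read.
Mup21 (chr4:62150792-62151091, minus strand): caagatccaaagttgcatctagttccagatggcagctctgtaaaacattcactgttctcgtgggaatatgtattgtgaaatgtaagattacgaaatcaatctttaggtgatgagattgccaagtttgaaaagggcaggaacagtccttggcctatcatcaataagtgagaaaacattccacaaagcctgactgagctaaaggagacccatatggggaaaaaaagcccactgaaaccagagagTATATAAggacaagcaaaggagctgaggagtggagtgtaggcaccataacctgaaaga
Mup3 (chr4:62087268-62087567, minus strand): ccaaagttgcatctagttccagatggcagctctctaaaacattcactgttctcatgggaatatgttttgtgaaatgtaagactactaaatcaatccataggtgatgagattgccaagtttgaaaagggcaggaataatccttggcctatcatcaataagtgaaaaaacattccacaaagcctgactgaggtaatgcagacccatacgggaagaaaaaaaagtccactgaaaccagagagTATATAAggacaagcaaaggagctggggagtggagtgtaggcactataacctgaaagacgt
Mup19 (chr4:61782175-61782474, minus strand): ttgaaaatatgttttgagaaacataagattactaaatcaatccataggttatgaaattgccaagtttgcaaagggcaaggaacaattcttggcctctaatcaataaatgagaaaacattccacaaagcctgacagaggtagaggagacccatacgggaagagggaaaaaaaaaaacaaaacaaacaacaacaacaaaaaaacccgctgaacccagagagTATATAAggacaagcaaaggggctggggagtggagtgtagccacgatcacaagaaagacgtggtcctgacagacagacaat
Mup18 (chr4:61674045-61674344, minus strand): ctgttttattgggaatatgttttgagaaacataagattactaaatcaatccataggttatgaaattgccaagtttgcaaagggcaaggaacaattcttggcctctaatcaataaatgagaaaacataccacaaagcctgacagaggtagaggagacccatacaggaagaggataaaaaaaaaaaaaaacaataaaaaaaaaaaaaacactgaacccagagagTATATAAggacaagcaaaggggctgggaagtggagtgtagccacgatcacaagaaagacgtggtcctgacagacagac
The promoters of Mup3 and Mup21 were 92.9% identical, and those of Mup18 and Mup19 were 93.6% identical. Among the 10 central genes with a promoter the identity was 89.9 to 99.0% (median 97.0% over 45 pairs). Identity was counted over the best-matching aligned part alone, 297 positions for Mup3 and Mup21 and 161 to 301 among the central genes. TATATAA, searched on both strands, was in 13 of the 14 promoters, all but that of Mup7, and in 3.24% of all 32851 RefSeq promoters. Its first base stood 8, 11, 31 and 28 bases before the annotated start in Mup21, Mup3, Mup19 and Mup18. The STAT element TTCNNNGAA was in 0 of the 14 and in 8.3% of all promoters, which says only that these letters are not in this window.

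Ftcd and the sex-linked genes were checked first. Ftcd was at 0.1 to 3.16 TPM in the 9 LKO libraries and at 61.17 to 106.1 TPM in 6 of the 9 libraries labelled WT, but at 1.77 to 2.5 TPM in the other 3 (DEN WT 1 and 2 and untreated WT 3), within the LKO range. Xist and the Y-linked genes marked all 9 libraries labelled WT, LKO tumour 1 and DEN LKO nontumour 1 as XX, and the remaining 7 LKO libraries, among them all 3 untreated ones, as XY. In untreated liver genotype and sex therefore cannot be told apart. Mitochondrially encoded transcripts made up 10.5 to 36.88% of TPM in the 9 LKO libraries. Their share was 4.24 to 10.01% in the 6 libraries labelled WT with Ftcd. It was 38.82, 6.47 and 23.16% in DEN WT 1, DEN WT 2 and untreated WT 3. TPM add to a fixed total, so this share bears on all levels. Its part was not tested beyond a covariate and a rescaling among the alternatives. Hepatocyte markers, 20 genes from Alb to Hnf4a, summed to 52732 to 121763 TPM in DEN LKO tumours, 68943 to 119865 in DEN LKO nontumour, 67824 to 189950 in DEN WT, 48119 to 98677 in untreated LKO and 103715 to 151349 in untreated WT libraries. Of 3 kidney genes, the proximal tubule genes Slc34a1 and Lrp2 were at most at 0.07 and 0.03 TPM in any library, and Umod, a gene of the thick ascending limb, at 1.24 TPM. Of 4 genes of salivary and lacrimal glands, Prol1, Smr2 and Bpifa2 were listed at 0 in all 18 libraries. The fourth, the amylase gene Amy1, which liver also uses, averaged 48.4 ± 48.9 TPM in DEN LKO tumours, 64.4 ± 24.7 in DEN LKO nontumour, 89.6 ± 40.5 in DEN WT, 65.4 ± 16.5 in untreated LKO and 90.3 ± 35.6 TPM in untreated WT livers (SD, n = 3, 3, 6, 3 and 3).

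Untreated LKO livers held the most Mup RNA. All members together came to 125288, 89717 and 132059 TPM in untreated LKO livers, against 61257, 34127 and 6195 TPM in the livers labelled untreated WT, or 12.53, 8.97 and 13.21% of all transcripts against 6.13, 3.41 and 0.62%. The 2 groups did not overlap, and their mean log2 sums differed by 2.28. Of the 20 most abundant genes in each library, 5 or 6 were Mup members in untreated LKO and 0 to 3 in the libraries of the other groups. After DEN the sums were 5240, 16392 and 7370 TPM in LKO tumours, 11177, 38016 and 1366 TPM in LKO nontumour liver, and 2394 to 64849 TPM (median 26361) in WT nontumour liver. The 3 DEN groups overlapped, and all their sums lay below every untreated LKO sum. The 3 libraries labelled WT with little Ftcd had the 3 lowest of the 9 sums with that label, 2394 and 11445 TPM after DEN and 6195 TPM untreated.

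**Figure D1:**
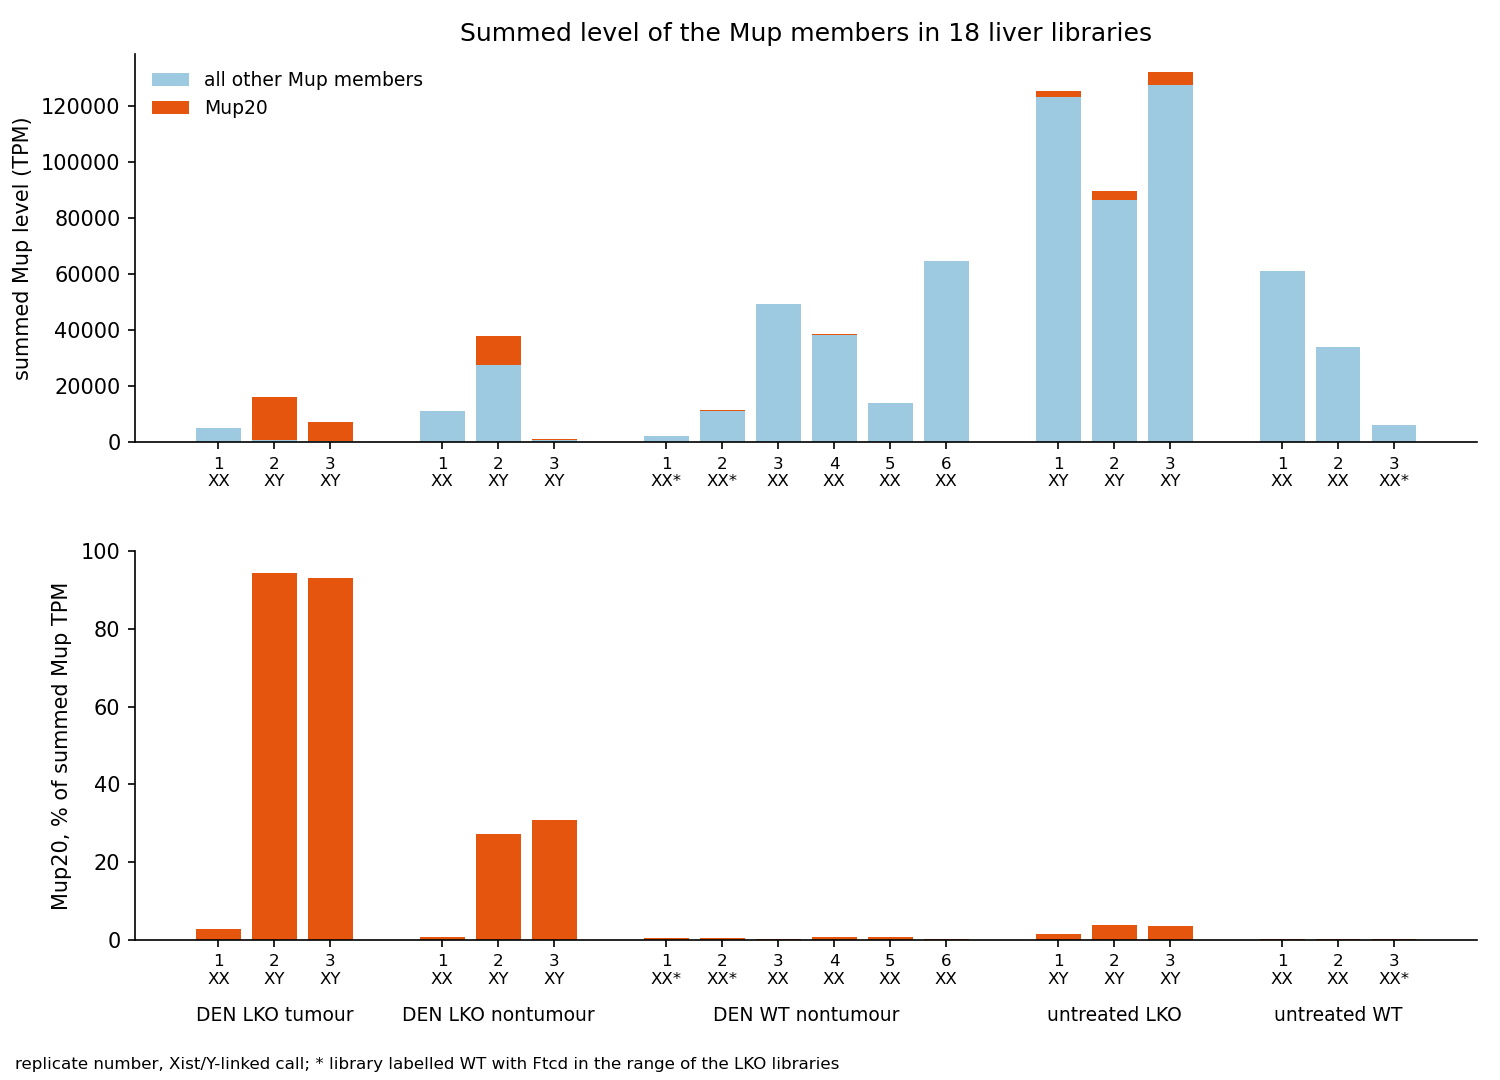
Summed level of the 49 Mup members in each library in TPM (upper panel, Mup20 on top of all other members) and the share of Mup20 in it in percent (lower panel), with the replicate number and sex call under each bar and an asterisk for libraries labelled WT with little Ftcd. The untreated LKO bars, from 89717 to 132059 TPM, stand above all others, and Mup20 fills 94.33 and 93.11% of DEN LKO tumours 2 and 3.

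Of the 49 members, 35 reached 1 TPM in at least 3 libraries and were tested (19 coding, 16 pseudogenes), while 14 did not, with no value above 3.21 TPM among them. Mup4, Mup5 and Mup6 were at most at 1.33 TPM in every library, and Mup-ps24, Mup-ps26, Mup-ps28 and Mup-ps29 were listed at 0 throughout. Mup22 had the highest mean over all libraries. It was at 943, 54.2 and 48.4 TPM in DEN LKO tumours, at 2055, 3157 and 146 TPM in DEN LKO nontumour, at 556 to 17457 TPM (median 6294) in DEN WT, at 11528, 7281 and 16348 TPM in untreated LKO and at 16411, 7090 and 1271 TPM in untreated WT livers. The untreated groups overlapped, as did all 3 DEN groups. Mup22 was the leading member of all 9 libraries labelled WT, with 20.5 to 26.9% of their Mup RNA, and of LKO tumour 1, LKO nontumour 1 and untreated LKO 3. Mup19 led in untreated LKO 1, Mup17 in untreated LKO 2, and Mup20 in the remaining 4 LKO libraries, all from DEN mice and all XY.

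Mup19 and Mup11, central genes like Mup22, were next in mean level. Mup19 was at 507, 20.6 and 7.48 TPM in DEN LKO tumours, at 1241, 2082 and 29.3 TPM in DEN LKO nontumour, at 118 to 13858 TPM (median 3686) in DEN WT, at 15359, 7346 and 15000.1 TPM in untreated LKO and at 10868, 4274 and 343 TPM in untreated WT livers. Mup11 was at 384, 149 and 80.6 TPM in DEN LKO tumours, at 754, 3062 and 44.6 TPM in DEN LKO nontumour, at 226 to 4716 TPM (median 1810) in DEN WT, at 13508, 11051 and 7570.2 TPM in untreated LKO and at 4533, 1805 and 342 TPM in untreated WT livers. The untreated groups overlapped for Mup19 and not for Mup11, whose 3 untreated LKO livers were all above the 3 untreated WT livers.

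Mup3 was at 323, 271 and 149 TPM in DEN LKO tumours, at 1542, 6132 and 381 TPM in DEN LKO nontumour, at 405 to 2333 TPM (median 1775) in DEN WT, at 6339.7, 3851 and 11367 TPM in untreated LKO and at 3097, 1151 and 739 TPM in untreated WT livers. All untreated LKO values were above all untreated WT values, and all tumour values were below all LKO nontumour values. Mup20 was at 140.2, 15462 and 6862 TPM in DEN LKO tumours, at 72.8, 10382 and 420.5 TPM in DEN LKO nontumour, at 10.8 to 295 TPM (median 79.7) in DEN WT, at 1799, 3299 and 4548 TPM in untreated LKO and at 41.2, 19.5 and 11.8 TPM in untreated WT livers. Its high libraries were all LKO and all XY, and the XX LKO libraries, tumour 1 and nontumour 1, lay inside the DEN WT range. Mup21, a close relative of Mup3 in sequence, was at 0, 62.8 and 6.76 TPM in DEN LKO tumours, at 16.0, 246 and 11.9 TPM in DEN LKO nontumour, at 0.24 to 5.99 TPM (median 3.13) in DEN WT, at 241, 77.7 and 256 TPM in untreated LKO and at 5.86, 0.13 and 0 TPM in untreated WT livers. Its untreated LKO values and its DEN LKO nontumour values were above all 9 values of libraries labelled WT.

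**Figure D2:**
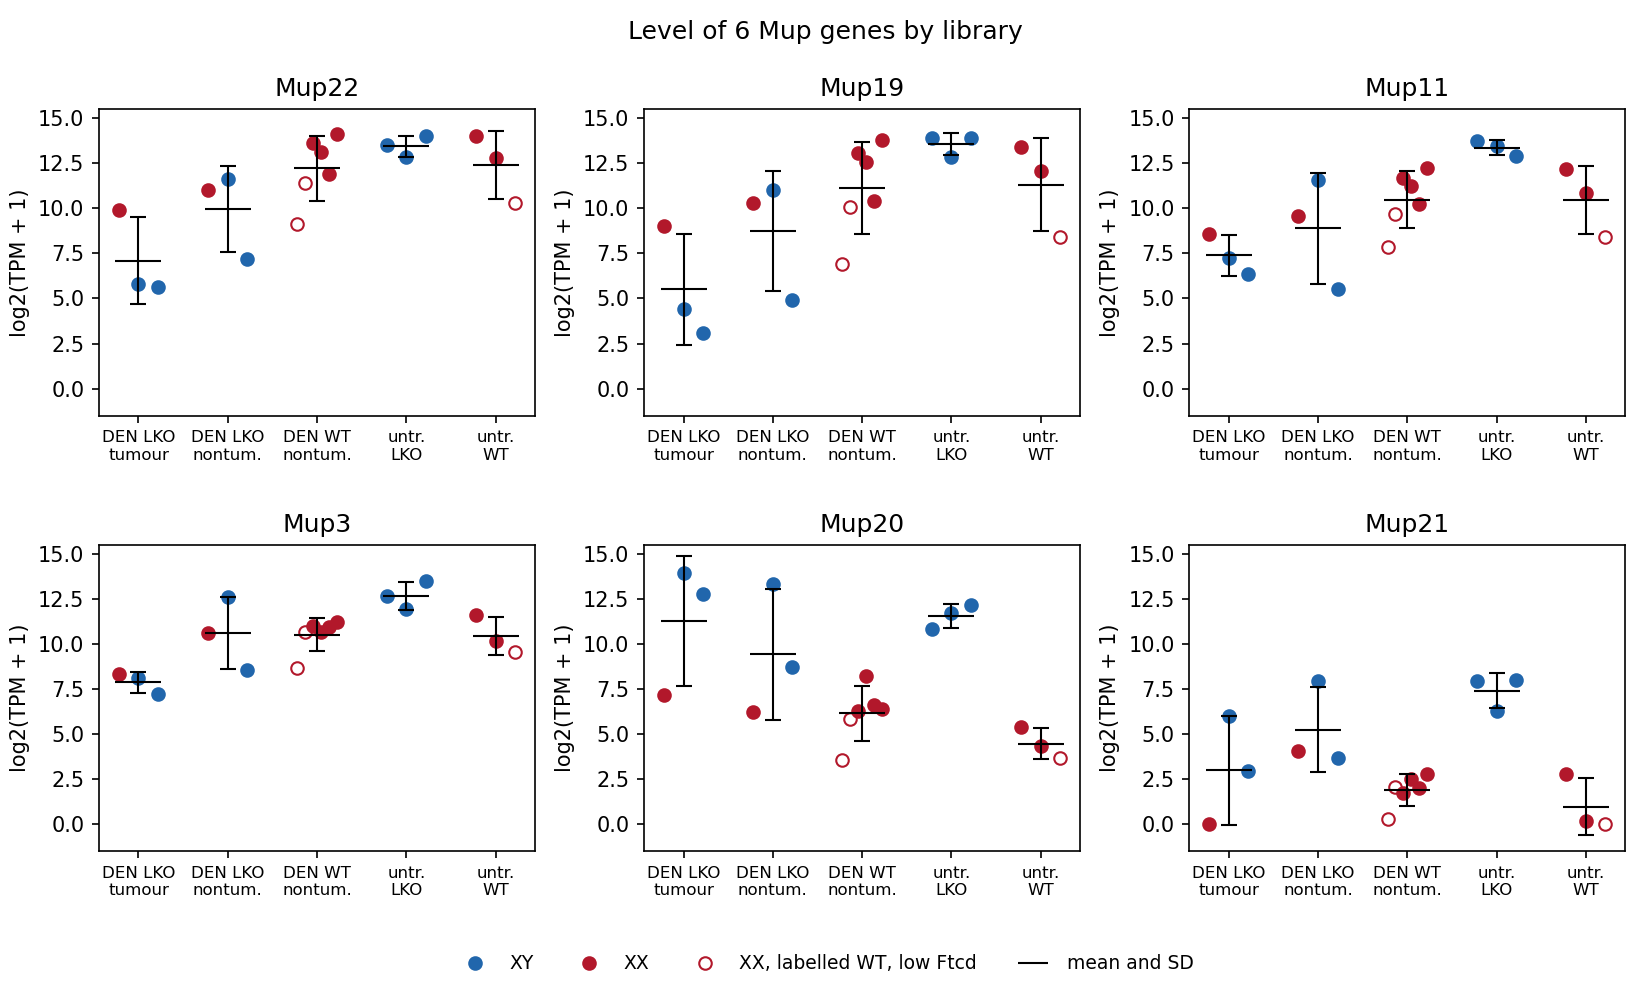
Level of 6 Mup genes as log2(TPM + 1) in every library by group, coloured by sex call, with open points for libraries labelled WT with little Ftcd and black bars for the mean and SD. Mup22, Mup19 and Mup11 spread widely within the DEN groups, while Mup20 and Mup21 are low in all 9 libraries labelled WT, at most 295 and 5.99 TPM.

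The make-up of the Mup pool varied as well as its size. Mup20 made up 2.68, 94.33 and 93.11% of Mup RNA in DEN LKO tumours and 0.65, 27.31 and 30.78% in DEN LKO nontumour liver, against 0.13 to 0.76% in DEN WT liver; in untreated livers the shares were 1.44, 3.68 and 3.44% in LKO and 0.07, 0.06 and 0.19% in WT. Without Mup20 the sums were 5099.9, 929.9 and 508 TPM in DEN LKO tumours and 11104, 27633 and 946 TPM in DEN LKO nontumour liver. Mup7 was at 12727, 8963 and 14985 TPM in untreated LKO livers, against 467, 502 and 64.3 TPM in untreated WT livers, and its share of Mup RNA was 10.16, 9.99 and 11.35% against 0.76, 1.47 and 1.04%. The share of Mup18 was 0.95, 0.63 and 1.58% in untreated LKO against 14.49, 3.5 and 1.37% in untreated WT livers. It was lower in untreated LKO than in untreated WT 1 and 2, but overlapped with untreated WT 3, a library with little Ftcd. The level of Mup18 was 1189, 567.98 and 2082 TPM against 8879, 1193 and 84.6 TPM and overlapped as well. Most of the transcript of either gene recurs in other members (81.6% of 100-base stretches for Mup7, 87.1% for Mup18), so their shares depend on how reads were divided.

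Fold changes come from limma on log2(TPM + 1) over all 13872 tested genes, 2-sided, with Benjamini-Hochberg adjustment, and pass at an adjusted p under 0.05; on this scale the change of low genes is understated. Between untreated LKO and untreated WT livers, 3 of the 35 members rose and 0 fell, where 0.173% of all tested genes rose and 0.26% fell. Mup21 rose by 6.42 ± 1.25 (log2, SE; adjusted p = 0.0218, n = 3 libraries each, limma). The pseudogenes Mup-ps11 and Mup-ps5 rose by 4.24 ± 0.48 (adjusted p = 0.000407) and 4.07 ± 0.54 (adjusted p = 0.00073, both limma). Mup-ps11 was at 7.42, 24.0 and 31.3 TPM in untreated LKO livers and listed at 0 in all 3 untreated WT livers, and Mup-ps5 was at 32.5, 34.1 and 15.8 TPM against 0.8, 0.37 and 0.69 TPM. The groups did not overlap for any of these 3 members. Mup-ps5 reached 1 TPM in 5 libraries, among them all 3 untreated LKO livers. It met the filter for testing only through this group, where it is high, so its call is not independent of the filter. Without the 3 libraries labelled WT with little Ftcd, Mup21 no longer passed (adjusted p = 0.129), nor did it without untreated LKO 1, untreated LKO 3, untreated WT 2 or untreated WT 3 alone, or with sex as a term (3.32 ± 1.57, adjusted p = 0.202), where Mup-ps11 alone passed (adjusted p = 0.0469, limma).

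By sequence, reads of either pseudogene could also come from other members. Every 100-base stretch of Mup-ps11 recurs in another member. Mup-ps5 (chr4:60597597-60597695, plus strand, GRCm38) is annotated as 99 bases that begin like the Mup coding sequence, printed here from GENCODE M21 because its call rests on so short a transcript.
Mup-ps5: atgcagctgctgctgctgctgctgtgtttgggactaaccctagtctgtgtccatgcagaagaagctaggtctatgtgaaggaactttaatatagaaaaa
All 99 bases are also present in Mup-ps1, Mup-ps6 and Mup-ps8. Those 3 had fold changes of 0.32, 0.25 and 0.99 in the same comparison, and none of them passed. Mup-ps6 and Mup-ps16 also overlap another gene on the same strand (Gm13773 and Gm13775), which makes their values uncertain.

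The other members mostly had higher values in untreated LKO without passing. At an unadjusted p under 0.05, 12 were higher, where 1.46% of all tested genes were so. In 31 of the 35 the fold change was positive, with a median of 2.24 against -0.33 over all tested genes. In 22 the untreated LKO and untreated WT values did not overlap (15 of 19 coding genes, 7 of 16 pseudogenes), all of them higher in LKO, where 2.45% of all tested genes were non-overlapping and higher; the count was also 22 without the libraries labelled WT with little Ftcd (4.48% of all genes) and 25 under median-ratio scaling (5.2%), which moved the median of all genes to 0.02. Mup20 had the largest fold change of all members, 7.07 ± 1.61, and missed the threshold (adjusted p = 0.0682), as did Mup-ps4 with 4.39 ± 0.96 (adjusted p = 0.0534) and Mup7 with 5.59 ± 1.47 (adjusted p = 0.185, all limma). With sex as a term Mup20 was no longer the largest, at 1.57 ± 1.55 (adjusted p = 0.451, limma). Mup-ps4 then had 6.01 ± 1.34 and Mup7 6.25 ± 2.21, and neither passed. Of the more abundant genes, Mup11 had 2.88 ± 1.29, Mup3 2.24 ± 0.84, Mup19 2.24 ± 1.84 and Mup22 1.07 ± 1.37, each with an adjusted p of 0.831 in limma. Mup18, at 0.21 ± 1.79, was nearest to 0 among the coding genes. With sex as a term every central gene had a larger value, and none of them passed. Mup22 then had 3.96 ± 1.82, Mup19 6.01 ± 2.48 and Mup18 3.27 ± 2.5. Smaller values with that term were those of Mup20, Mup21, Mup-ps5, Mup-ps11 and Mup-ps19.

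The remaining central genes showed how far the untreated groups stood apart relative to their spread. Mup1 averaged 4155 ± 850 TPM in untreated LKO and 332 ± 301 TPM in untreated WT livers (SD, n = 3 each), Mup17 averaged 9884 ± 2367 TPM in untreated LKO and 1297 ± 1062 TPM in untreated WT, and Mup14 averaged 11561 ± 2983 TPM in untreated LKO and 2195 ± 1249.9 TPM in untreated WT. Mup12, the lowest of the central genes in mean over all 18 libraries, averaged 1533 ± 507 TPM in untreated LKO and 87.0 ± 65.5 TPM in untreated WT livers. For these 4 genes the 2 groups did not overlap, and the SD within untreated WT was large beside its mean. In untreated LKO livers Mup9 averaged 5233 ± 1930.4 TPM, Mup13 5086 ± 1376, Mup15 4917 ± 1469, Mup2 3181 ± 859.9, Mup8 2835 ± 771 and Mup16 2217 ± 732 TPM. In untreated WT livers Mup9 averaged 1463 ± 1337 TPM, Mup13 1066 ± 689, Mup15 1099 ± 1052, Mup2 873 ± 687, Mup8 523 ± 512 and Mup16 771 ± 518 TPM. These 6 did not overlap between the groups either. In the DEN groups the same 6 had means of 21.5 to 176 TPM in LKO tumours, 254 to 578 TPM in LKO nontumour liver and 268 to 1425 TPM in WT nontumour liver. Mup10 averaged 5464 ± 2822 TPM in untreated LKO and 2887 ± 1985 TPM in untreated WT livers and overlapped. Among pseudogenes the 4 of highest mean level were Mup-ps3, Mup-ps13, Mup-ps12 and Mup-ps14, at 128 ± 43.9, 81.4 ± 4.66, 97.3 ± 52.5 and 39.3 ± 26.7 TPM in untreated LKO against 38.8 ± 38.7, 48.0 ± 12.1, 16.9 ± 11.3 and 36.9 ± 22.1 TPM in untreated WT livers (SD, n = 3 each), and none passed. Mup-ps19 averaged 4.52 ± 2.72 TPM in untreated LKO and 0.06 ± 0.11 TPM in untreated WT livers (SD, n = 3 each), without overlap, and did not pass (2.23 ± 0.79, adjusted p = 0.734, limma). The 8 remaining tested pseudogenes, Mup-ps1, Mup-ps6 to Mup-ps10, Mup-ps16 and Mup-ps17, had means of 0.41 to 10.9 TPM in untreated LKO and 1.2 to 16.7 TPM in untreated WT livers. The 4 negative fold changes were among them, -0.77 for Mup-ps7, -0.79 for Mup-ps10, -0.81 for Mup-ps16 and -0.78 for Mup-ps17, and none passed. All pseudogenes together made up 0.11 to 4.39% of the Mup RNA of a library.

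Other genes of sex-biased liver expression differed between the same untreated livers. These lists, like the members, were chosen with results of these data known. Of 19 tested male-biased genes 7 rose and 0 fell in untreated LKO. Among them were the cytochrome P450 gene Cyp2d9, at 685 ± 186 TPM in untreated LKO and 9.18 ± 1.55 TPM in untreated WT livers (SD, n = 3 each; 6.05 ± 0.88, adjusted p = 0.00188, limma), Cyp4a12a, a fatty acid hydroxylase gene (6.80 ± 0.81), the steroid dehydrogenase gene Hsd3b5 (5.20 ± 0.79) and the anion transporter gene Slco1a1 (4.46 ± 0.60). Of 20 female-biased genes 15 fell and 0 rose, among them Cyp3a41a (-10.89 ± 1.85), Cyp2a4 (-8.60 ± 1.03), A1bg (-9.05 ± 1.14) and the sulfotransferase gene Sult2a1 (-8.26 ± 1.08). In untreated liver the sexes of the libraries, XY in all 3 LKO and XX in all 3 WT, move with these lists and with most members. Their part in the result was not tested beyond the fit with sex as a term. That term rests on the DEN LKO groups, the only ones that hold both sexes. There the Mup sum without Mup20 was higher in the XX tumour (5099.9 TPM) than in the XY tumours (929.9 and 508 TPM). In nontumour liver the XX value of 11104 TPM lay between the XY values of 27633 and 946 TPM. Mup20 was lowest in the XX library of both groups.

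Of 27 tested genes of growth hormone signalling, its target and feedback genes included, and known or proposed Mup regulators, 0 rose and 1 fell in untreated LKO. That gene was Cux2, a repressor of male liver genes that is also 1 of the 15 female-biased genes counted above, at 0.03 ± 0.03 TPM in untreated LKO and 7.33 ± 0.79 TPM in untreated WT livers (SD, n = 3 each; -3.01 ± 0.47, adjusted p = 0.00289, limma). The growth hormone receptor gene Ghr had a fold change of -0.71 ± 0.64, Stat5b of -0.47 ± 0.35, Igf1, a growth hormone target, of -0.87 ± 0.44 and Zhx2, a zinc finger and homeobox factor known to act on Mup genes, of -0.45 ± 0.52, and none passed. Prlr averaged 9.09 TPM in untreated LKO and 104.68 TPM in untreated WT livers, Socs2 2.21 and 9.04, and Cish 0.97 and 4.27. These did not overlap, where 8.97% of all tested genes were non-overlapping and lower, and did not pass. Of the 27 genes, 21 had a negative and 6 a positive fold change, with a median of -0.47 against -0.33 over all tested genes. Of 11 other lipocalin and carrier genes none passed, among them Fabp1, Ttr, Rbp4 and Ambp with fold changes of -0.53, -0.81, -0.77 and -0.71. Of 20 hepatocyte markers none passed either, with a median of -0.89, and the 10 macrophage and Kupffer cell markers had a median of -1.01 without a call. In whole tissue, fewer cells of a type and less RNA per cell cannot be told apart.

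**Figure D3:**
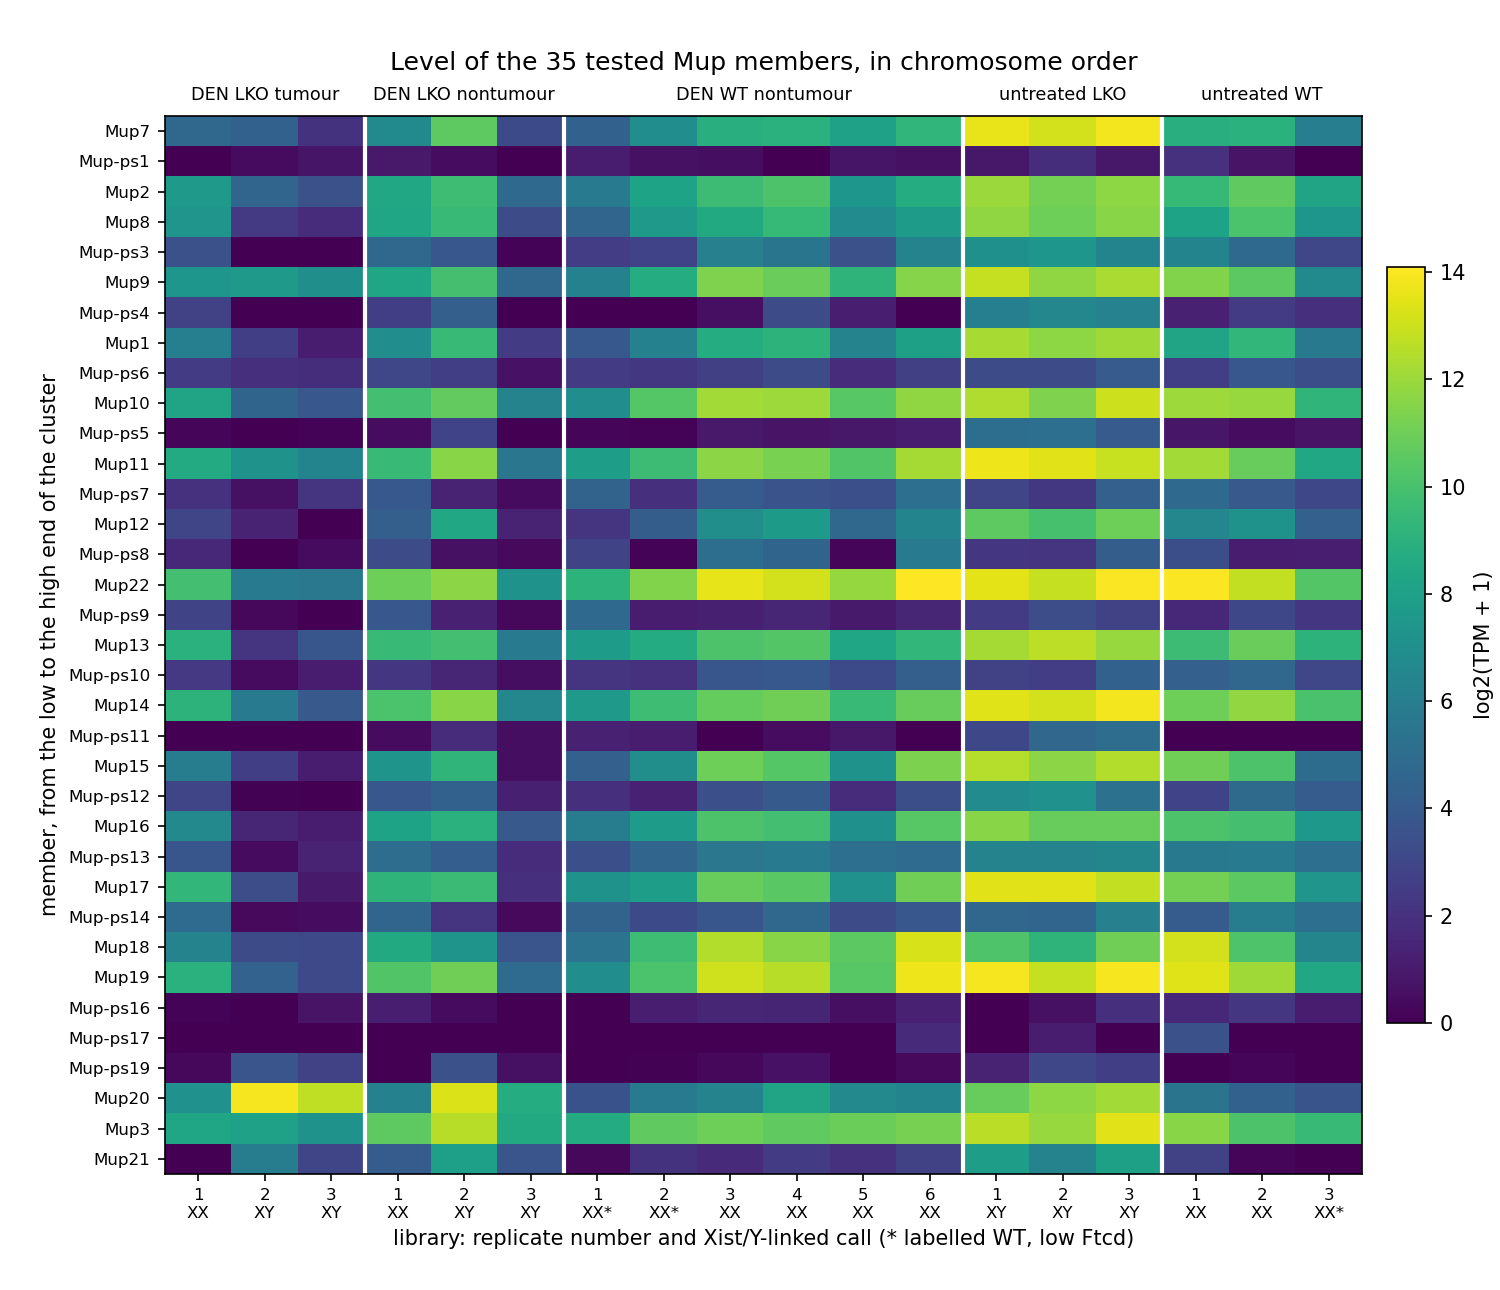
Level of the 35 tested members as log2(TPM + 1) in each library, in chromosome order from top to bottom, with the groups side by side and the replicate number and sex call under each column. The central genes other than Mup18 have their highest group mean TPM in untreated LKO. In the libraries labelled WT their levels vary widely between genes and libraries, and Mup20 is high in LKO libraries called XY.

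DEN LKO nontumour liver held less Mup RNA than untreated LKO liver. Of the 35 members 2 fell and 0 rose, where 0.0288% of all tested genes fell and 0.036% rose. They were the same pseudogenes as above, Mup-ps5 by -3.66 ± 0.54 and Mup-ps11 by -3.32 ± 0.48 (adjusted p = 0.009 each, n = 3 libraries each, limma). Mup-ps5 was at 0.36, 6.16 and 0 TPM in DEN LKO nontumour livers, against 32.5, 34.1 and 15.8 TPM in untreated LKO livers, and Mup-ps11 at 0.35, 2.46 and 0.45 TPM against 7.42, 24.0 and 31.3 TPM. Neither overlapped between the groups. The untreated LKO livers are those of the comparison above, so the 2 results share their high group. Mup-ps5 also met the filter for testing only through that group. The calls rested on single libraries: 0 members passed without DEN LKO nontumour 1, nontumour 3 or untreated LKO 2, 1 passed without untreated LKO 1 or 3, and 4 passed without nontumour 2. With sex as a term 11 passed, all lower, where 0.144% of all tested genes passed as lower and 1.22% as higher.

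At an unadjusted p under 0.05, 25 members were lower, where 0.908% of all tested genes were so. All 35 fold changes between these groups were negative, with a median of -3.50 against 0.12 over all tested genes. In 25 members, 16 coding and 9 pseudogenes, every DEN LKO nontumour value lay below every untreated LKO value, where this held for 2.46% of all tested genes; the count was 29 without the XX library DEN LKO nontumour 1 (3.24% of all genes) and 25 under median-ratio scaling (10.7%). Mup3, Mup20 and Mup21 were the 3 coding genes whose groups overlapped. Mup7 had the lowest fold change, -6.71 ± 1.47 (adjusted p = 0.157), at 107, 1541 and 7.99 TPM in DEN LKO nontumour against 12727, 8963 and 14985 TPM in untreated LKO livers. Mup17 had -6.35 ± 1.97, Mup11 -4.46 ± 1.29, Mup19 -4.80 ± 1.84 and Mup22 -3.50 ± 1.37, and none of them passed. Of the same lists, male-biased genes had 0 calls and a median of -1.49, female-biased genes 1 call (Cyp2a4, 7.60 higher, adjusted p = 0.009, limma) and a median of 1.66. Hepatocyte markers had 0 calls and a median of -0.02, and macrophage and Kupffer cell markers 0 calls and a median of 1.68. DEN LKO nontumour livers were 1 XX and 2 XY libraries against 3 XY untreated LKO libraries.

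In WT liver DEN went with no detected difference in any member. Between DEN WT nontumour (n = 6) and untreated WT (n = 3) libraries, 0 of 35 members passed limma, 0 had an unadjusted p under 0.05 and 0 passed with a robust variance estimate, where 0% of all tested genes passed and 0.685% had an unadjusted p under 0.05. Fold changes ran from -1.30 to 1.67 with a median of -0.42, against 0.01 over all tested genes, and no member was without overlap between the groups, where 0.49% of all tested genes were so and higher and 0.18% lower after DEN. The sums varied widely within both groups, from 2394 to 64849 TPM after DEN and from 6195 to 61257 TPM untreated, and the low-Ftcd libraries were the lowest in both.

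Whether the genotype difference changed with DEN was tested as the difference of the 2 genotype differences. It passed for 0 of 35 members in limma and in its robust form, as it did for 0% of all tested genes, and 11 members had an unadjusted p under 0.05, all negative, where 0.526% of all tested genes were so. The median over the members was -3.08, against 0.11 over all tested genes. The values were -3.95 ± 0.64 for Mup-ps11 (adjusted p = 0.103), -3.66 ± 0.71 for Mup-ps5 (adjusted p = 0.23) and -6.49 ± 1.94 for Mup7 (adjusted p = 1, limma). Without untreated LKO 1, Mup-ps11 passed, and without DEN LKO nontumour 2, both pseudogenes did. The sexes were not alike in the 2 genotype differences. Untreated LKO libraries were all XY and untreated WT all XX, while DEN LKO nontumour held both and DEN WT was all XX. Both WT groups also held libraries with little Ftcd. The fit with sex as a term gave 0 members, where 0.00721% of all tested genes passed as higher and 0% as lower. The part of sex in these values was not tested further.

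Between LKO nontumour and WT nontumour liver after DEN, 0 of 35 members passed limma, as with the robust variance estimate, where 0.0577% of all tested genes did. At an unadjusted p under 0.05, 2 members were higher (6.56% of all genes) and 3 were lower (6.5%). The higher ones were Mup20 (3.27 ± 1.39, adjusted p = 0.359) and Mup21 (3.34 ± 1.08, adjusted p = 0.313), and the lower ones Mup18 (-3.97 ± 1.55, adjusted p = 0.349), Mup-ps7 (-1.89 ± 0.74, adjusted p = 0.349) and Mup-ps10 (-1.79 ± 0.61, adjusted p = 0.329, all limma). Mup21 was the 1 member without overlap, higher in LKO, where 2.33% of all tested genes were so. The 4 more abundant named genes Mup22, Mup19, Mup11 and Mup3 had fold changes of -2.26 ± 1.19, -2.39 ± 1.59, -1.59 ± 1.12 and 0.08 ± 0.73. Without the DEN WT libraries with little Ftcd, 3 members passed as lower in LKO, Mup18, Mup9 and Mup-ps10, where 5.65% of all tested genes did so, and 0 passed as higher, where 2.7% did. With sex as a term the value for Mup20 was -0.40, a change of sign. Of the female-biased genes A1bg, Sult2a1 and Sult2a2 fell, and of the male-biased genes 0 passed, with a median of 0.94.

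LKO tumours 2 and 3 held a pool that was nearly all Mup20, and the central genes were low in them. Between tumours and LKO nontumour liver, the group used in the 2 comparisons above as well, the sums differed by 0.04 in mean log2, and by -2.30 without Mup20. In limma and in its robust form 0 of 35 members passed, as did 0% of all tested genes; without tumour 1, Mup13 passed as lower. At an unadjusted p under 0.05, 10 members were lower and 0 higher (8 coding, 2 pseudogenes), where 1.36% of all tested genes were lower and 1.38% higher. The fold change was negative in 31 members, with a median of -1.83 against 0.23 over all tested genes. Mup3 (-2.70 ± 0.84, adjusted p = 0.943) and Mup-ps11 (-0.92 ± 0.48, adjusted p = 0.943) were the 2 members without overlap, both lower in tumours, where 2.02% of all tested genes were so. Without the XX pair, tumour 1 and nontumour 1, 16 members did not overlap and were lower in tumours, where 12.5% of all tested genes were so with 2 libraries a group.

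Of the 3 members with a positive fold change in tumours, Mup20 and Mup-ps19 were higher by 1.84 ± 1.61 and 0.86 ± 0.79 (adjusted p = 0.943 each, limma), and both overlapped between the groups. The third, Mup-ps6, had a value that rounded to 0. Mup-ps19 was at 0.22, 12.3 and 5.61 TPM in tumours and at 0, 10.4 and 0.57 TPM in LKO nontumour liver. The pseudogene shares 76.7% of its 100-base stretches with other members, so the split of reads with them is uncertain. Mup9 was the central gene with the smallest difference (-0.30 ± 1.39), at 166, 196 and 130.3 TPM in tumours. Hepatocyte markers had 0 calls and a median of 0.03 between the same groups. The labels do not say whether a tumour and a nontumour library of the same number come from the same mouse.

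**Figure D4:**
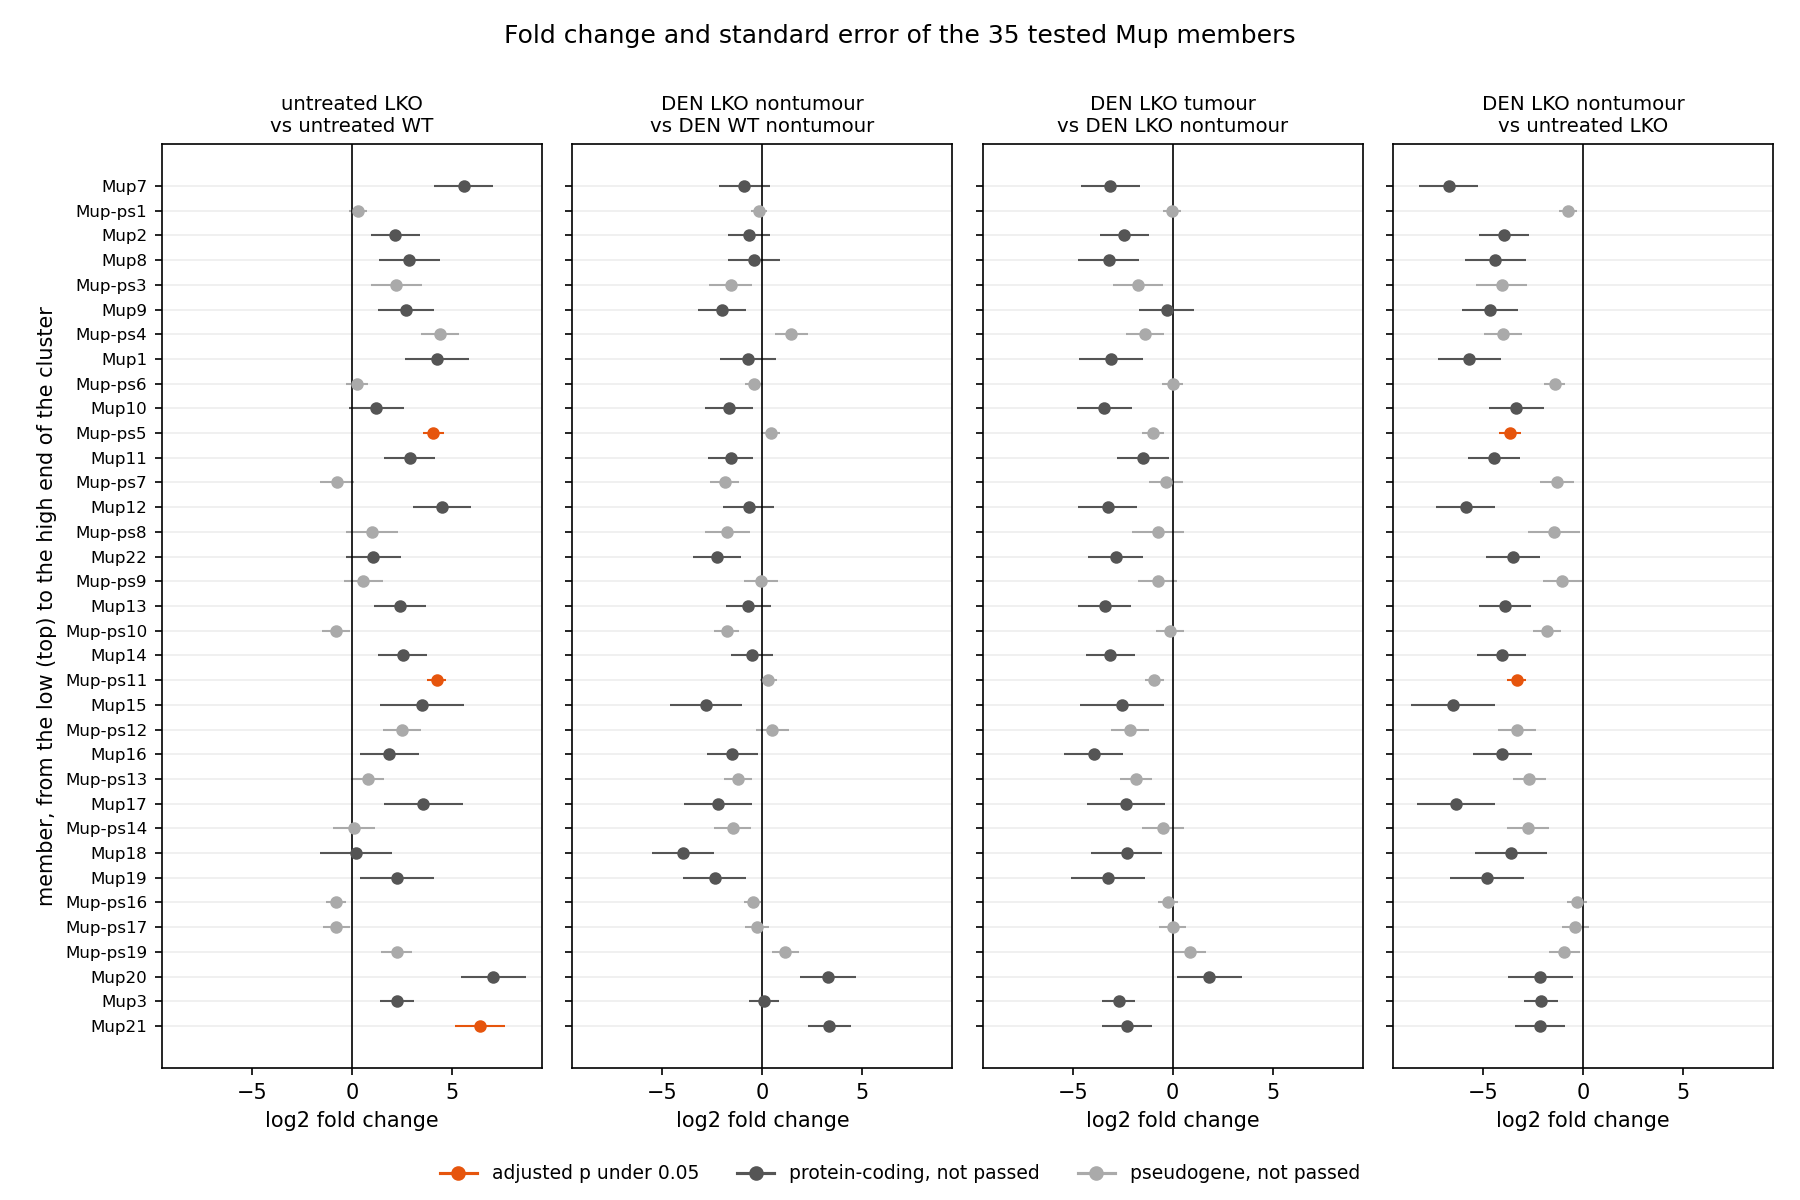
Log2 fold change of the 35 tested members with its standard error in 4 comparisons, in chromosome order from top to bottom, with dark grey for coding genes, light grey for pseudogenes and orange for members that passed. Untreated LKO against WT lies mostly right of 0 (median 2.24), and DEN LKO nontumour against untreated LKO lies left of 0 for all 35 members (median -3.50).

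The members did not all vary together across libraries. Over the 18 libraries, which share group and sex differences, Spearman's rho between 2 central genes had a median of 0.91 (0.59 to 0.99), as a description. These genes share most of their 100-base stretches, and the part of shared reads in that likeness was not tested. Mup3, which shares few 100-base stretches, had a median rho of 0.87 to the central genes (0.71 to 0.93). Mup21 had 0.35 (-0.03 to 0.44) and Mup20 0.04 (-0.27 to 0.20). Mup20 and Mup21 had a rho of 0.75 to each other, against 0.49 for Mup3 and Mup21, although Mup21 is closer in sequence to Mup3 than to Mup20, and the member most like Mup20 was Mup-ps19 (0.91). Within the 9 libraries labelled WT, all XX, Mup20 had a median rho of 0.49 to the central genes and the central genes one of 0.78 among themselves.

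Outside the family, the genes whose rank order over the 18 libraries was most like that of the summed Mup level were sought among 4146 genes of at least 10 TPM on average. The 5 most alike were Ugt2b1 (rho 0.91), which encodes a glucuronosyltransferase, Rarres1 (0.91), Ces3a (0.84), a carboxylesterase gene, Nudt7 (0.82), a peroxisomal coenzyme A hydrolase gene, and Hao1 (0.82), the peroxisomal glycolate oxidase gene. Ugt2b1 averaged 16.4 ± 4.58 TPM in DEN LKO tumours, 25.6 ± 9.46 in DEN LKO nontumour, 41.0 ± 26.7 in DEN WT, 89.5 ± 25.1 in untreated LKO and 52.7 ± 36.9 TPM in untreated WT livers (SD, n = 3, 3, 6, 3 and 3). Its group means had the same order as those of the Mup sums without Mup20, lowest in tumours and highest in untreated LKO livers, with overlap between groups. Ugt2b1 was picked for its likeness to the summed level in these same libraries, so this order is no separate evidence. Ugt2b1 and Nudt7 are also on the list of male-biased genes used above. The 5 most opposite were Mgst3 (-0.83), a membrane glutathione transferase gene, Gngt2 (-0.79), Gm26716 (-0.74), Vps72 (-0.74) and Ephb4 (-0.72).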

How the data were processed

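RNA sequencing of mouse liver was analysed from 1 table of TPM per gene and library, deposited by the authors. TPM corrects for gene length and scales each library to the same total. Each of the 18 columns summed to between 999999 and 1000001, so depth cannot be recovered and no interval or detection limit was computed. The authors used HISAT, RSEM, fastp and build mm10, per the submitters' processing notes, with versions and settings not given in the sources used here. Total RNA came from TRIzol extraction and went into TruSeq libraries, per the labels' protocols. The table also held group means, left unused, which lay within 3.3e-05 TPM of the means of the library columns.

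Groups were taken from the sample titles. Of 58126 genes, 55227 identifiers were in GENCODE M21, which gave coordinates and transcripts; all 49 members were. Members were matched by symbol. A gene was tested if 3 or more of the 18 libraries had it at 1 TPM or above, which held for 13872 of the 29866 genes above 0. Limma 3.58.1 in R 4.3.3 fitted log2(TPM + 1) in 1 model of 5 group means with an intensity trend (13 residual and 4.71 prior degrees of freedom), and was tested on simulated data. Each of 5 comparisons and the difference of the genotype differences was adjusted on its own over all tested genes. Named by rule were Mup3, Mup20, Mup21, the 3 other members of highest mean TPM, the 4 highest pseudogenes, up to 4 genes per list and members that passed. Other members and other list genes, Stat5b and Zhx2 among them, were named outside this rule, with their values known. The members, gene lists, rules and tests were chosen with earlier results of these data known. Sequences were aligned with Biopython 1.88. Other steps used scipy 1.17.1, numpy 2.4.6, pandas 2.3.3 and matplotlib 3.10.9 under Python 3.11.15. The alternatives were other pseudocounts, filters, scalings, variance estimates and covariates, the compared groups alone with and without a replicate block, and leaving out libraries.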

Additional observations from a re-analysis of the deposited data

Results flagged for a closer look

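Within the 6 DEN WT nontumour libraries, 36 gap tests, 1 for each tested member and 1 for the summed level, singled out 4 values that stood far from the others of the group. Chance alone gives about 1 in 20 groups such a value where values follow a normal distribution and the others differ among themselves. The gaps were taken on TPM without a log scale, and all 4 flagged values were high ones, so this rate need not hold here. Mup20 was at 294.95 TPM in DEN WT 4, with the next value at 97.46 TPM. Mup-ps4 was at 8.17 TPM in the same library, with the next at 1.3 TPM. Mup-ps9 was at 27.27 TPM in DEN WT 1, a library labelled WT with little Ftcd, with the next at 1.88 TPM. Mup-ps17 was at 2.38 TPM in DEN WT 6 and listed at 0 in the other 5 libraries, so that any value above 0 would have been singled out and the chance rate does not apply to it. Most 100-base stretches of Mup-ps9 (81.2%) recur in other members, as do 38.8% of those of Mup20, 45.2% of Mup-ps4 and 33.6% of Mup-ps17, and the part of read sharing in these values was not tested.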

How the results depend on the processing

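Alternatives without Mup20, without DEN LKO replicate 1 (XX), and all those for non-overlapping members were chosen after seeing the data. For untreated LKO against untreated WT, the count of 3 members that passed became 5 with the compared groups alone (0.173% of all genes higher) or under median-ratio scaling (0.384%), 1 with a sex term (0.0577%), and 2 to 3 without single libraries. For DEN LKO nontumour against untreated LKO, 2 became 0 with the groups alone or a pseudocount of 0.1, 1 with a filter of 5 TPM (0.0125% of all genes lower), 4 without DEN LKO replicate 1 (0.0577%), 11 with a sex term (0.144%), and 0 to 4 without single libraries. For DEN LKO against DEN WT nontumour, 0 became 3, all lower, without the low-Ftcd libraries (5.65% of all genes) and stayed 0 without single ones. For tumour against nontumour, 0 became 1 at most without single libraries, and for the difference of genotype differences 1 under median-ratio scaling or quantile normalization and 0 to 2 without single libraries. For DEN WT against untreated WT the count was 0 throughout. The replicate block gave 0 members for untreated LKO against untreated WT and 0 for DEN LKO nontumour against untreated LKO. Same-numbered libraries of compared groups correlated at -0.63 to 0.35 in their deviations. Among these comparisons, only tumour against nontumour could hold libraries of the same mouse. Its correlations were 0.35, 0.3 and -0.03, and its same-numbered libraries had the same sex call throughout. This does not settle whether they come from the same mouse, and the main fit did not treat the numbers as pairs. The replicate block gave 0 members there too, as for 0% of all tested genes.

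For DEN LKO against DEN WT nontumour, non-overlapping members (1 higher and 0 lower with all libraries) became 2 higher and 3 lower without DEN LKO replicate 1 (8.3 and 2.5% of all genes), and 1 higher and 3 lower without the low-Ftcd libraries (8.63 and 29.6% of all genes). For tumour against nontumour, 2 lower became 16 without DEN LKO replicate 1 (12.5% of all genes) and 1 under median-ratio scaling (3.45%). For DEN WT against untreated WT, 0 became 1 higher and 3 lower without the low-Ftcd libraries (5.12 and 1.66% of all genes). Without single libraries, differences of mean log2 sums ran from 1.32 to 2.97 for untreated LKO against untreated WT, -2.28 to 0.11 for DEN LKO against DEN WT nontumour, -4.87 to -2.47 for DEN LKO nontumour against untreated LKO, -1.26 to 1.14 for tumour against nontumour and -1.26 to 0.39 for DEN WT against untreated WT. For tumour against nontumour the difference of 0.04 became -0.25 under median-ratio scaling, -0.06 without mitochondrial genes and -2.30 without Mup20.

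Of 1064 single-gene values under alternatives, 996 kept direction and call, 27 lost a call, 10 gained one and 31 changed sign, none of these a called value. For DEN WT against untreated WT, Mup11 (0.01) became -0.74 with the replicate block, -0.01 under median-ratio scaling, -0.14 with mitochondrial share, -0.09 under quantile normalization and -0.15 without the low-Ftcd libraries, and Mup3 (0.07) became -0.34 with the block and -0.06 with mitochondrial share. For DEN LKO against DEN WT nontumour, Mup19 (-2.39) became 0.12 and Mup20 (3.27) -0.40 with a sex term, and Mup3 (0.08) -0.35 without the low-Ftcd libraries. Without single libraries, the ranges were -0.14 to 0.54 for Mup-ps11, -0.46 to 0.96 for Mup-ps5, -2.94 to 0.1 for Mup11 and -0.92 to 1.08 for Mup3 in that comparison, and -1.01 to 0.86 for Mup11, -1.6 to 0.89 for Mup19, -1.2 to 0.65 for Mup22 and -0.38 to 0.65 for Mup3 in DEN WT against untreated WT. The adjusted p of Mup21 in untreated LKO against untreated WT ran from 0.00498 to 0.202 and missed the threshold in 9 of 19 alternatives; that of Mup20 ran from 0.00922 to 0.451 and passed in 5. The causes of these shifts were not tested. Unknown depth, shared reads and groups of 3 limit all values.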
